A study of Homo sapiens with 18 samples.

Results

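The p38 mitogen-activated protein kinase (MAPK) module was described here by 10 genes: the p38 isoforms MAPK14 (p38α), MAPK11 (p38β), MAPK12 (p38γ) and MAPK13 (p38δ), the kinases that phosphorylate them directly, MAP2K3 (MKK3) and MAP2K6 (MKK6), the upstream stress kinase MAP3K5 (ASK1), and the substrate kinases MAPKAPK2 (MK2), MAPKAPK3 (MK3) and MAPKAPK5 (PRAK). Probes that carry a RefSeq accession of one of these genes were taken if they were well above background on all arrays of some group. This gave 15 probes for 10 of the 15852 named genes tested, and probes that failed this filter were left out. MAP2K3 had 3 probes, MAPK11, MAPK13 and MAP3K5 had 2 each, and every other gene had 1. The material was total RNA of EpCAM+ cells, isolated by fluorescence-activated sorting from the human hepatocellular carcinoma (HCC) lines Huh1 and Huh7 and hybridized to 18 one-color arrays. In each line 3 arrays each stood for control cells, for cells given disulfiram (DSF, 0.1 µM) and for cells given 5-fluorouracil (5-FU, 1 µM), both for 48 hours. DSF was given with copper chloride per the methods, which leave the vehicle of the controls unstated, and the effects of the drug and the metal cannot be told apart. The methods describe triplicate samples from independent experiments, each group rests on a single line, and no second clone or passage of a line is described.

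p38 kinases respond to oxidative stress, inflammatory cytokines and DNA damage. ASK1, which is held inactive by reduced thioredoxin, phosphorylates MKK3 and MKK6, and these phosphorylate the p38 isoforms on a threonine and a tyrosine of the activation loop. p38α is the isoform with the broadest expression and p38β is its closest relative, and both are blocked by pyridinyl imidazole inhibitors, whereas p38γ and p38δ are not. MK2 and MK3 are phosphorylated by p38 and stabilize cytokine mRNAs and phosphorylate the small heat shock protein HSP27, and PRAK is a related kinase. In liver cells p38α is known as a brake on proliferation. Arrays measure mRNA and not phosphorylation, so none of the values below is an activity of a kinase.

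By the scanner software's flag, which the filter asked for on all arrays of some group only, all 15 probes lay well above background on all 18 arrays. Across arrays 59.9% to 71.1% of the 42405 probes did so, and no spot was saturated. A level below is the log2 of the processed signal minus the array's own 75th percentile, and each gene is read from its brightest tested probe unless another is named. Levels of different probes cannot be set against each other. On the 6 arrays of cells given 5-FU this percentile stood higher against the spike-in controls than on the other arrays, and scaling on the spike-ins moved the median change of all tested probes after 5-FU to 0.80 in Huh1 and 0.94 in Huh7. Changes after 5-FU are therefore relative to the bulk of the probes. After DSF the same scaling gave medians of 0.14 and -0.09. The arrays lay on 3 slides: control and 5-FU arrays of a line shared a slide, Huh1 DSF replicate 3 lay on the slide of the Huh7 controls, and Huh7 DSF replicates 2 and 3 were alone on a slide of another scan day. In bulk RNA, fewer cells of a kind and less RNA per cell cannot be told apart. Albumin, AFP and the other 6 hepatocyte and HCC markers as well as EPCAM were well above background on all 18 arrays, KDR (endothelium) on 0, and CD3E, COL1A2, ACTA2 and PDGFRB on 2 to 6, whereas PTPRC, CD14, PECAM1, CDH5, KRT7 and SOX9 were flagged so on all 18. EPCAM was 0.66 and 0.50 lower on the log2 scale after DSF in Huh1 and Huh7. In Huh1 7 of 8 hepatocyte markers fell after DSF (median -0.69), as did 26.3% of all named genes. Both cholangiocyte markers, KRT7 and SOX9, rose in Huh1 after either drug (medians 1.00 and 1.04), as did 26.4% (DSF) and 25.9% (5-FU) of all genes. In Huh7 2 hepatocyte markers rose and 3 fell after DSF (median -0.06), beside 29.1% and 24.1% of all genes. Of the cholangiocyte markers 0 rose there after either drug and 1 fell after DSF. The part of these shifts in the results below was not tested.

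**Figure D1:**
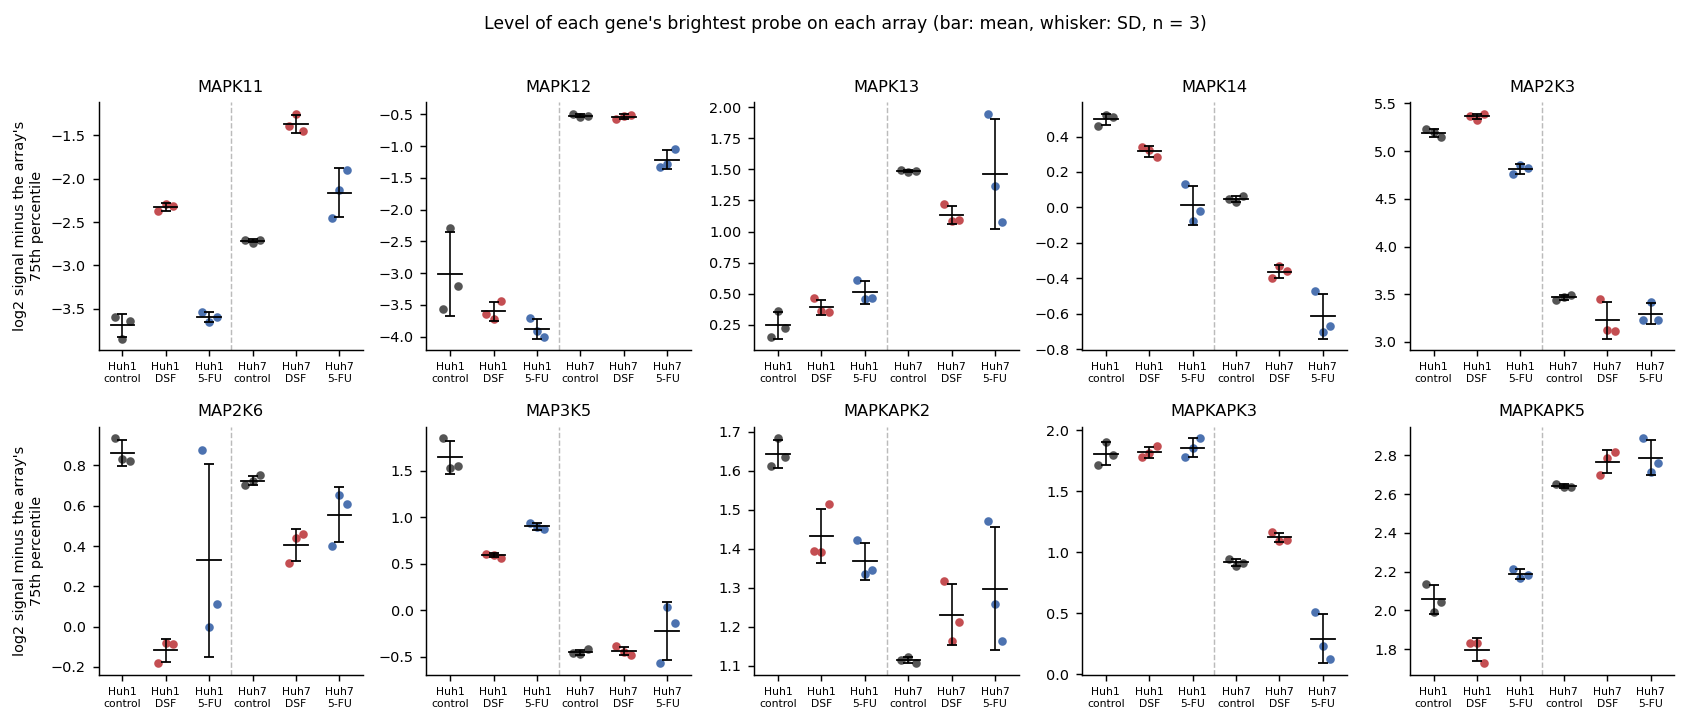
Each panel plots 1 gene's brightest probe on the 18 arrays, as log2 signal minus the array's 75th percentile (vertical axis, a separate scale per panel), against the 6 groups (horizontal axis); points are arrays, bars group means and whiskers SD (n = 3). MAPK11 stood higher on all DSF arrays than on the control arrays of the same line, MAPK14 lower on all treated arrays (not after 5-FU with spike-in scaling), and Huh1 control replicate 2 of MAPK12 lay at -2.29, apart from -3.56 and -3.20.

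The untreated lines were compared first, since every drug effect starts from this baseline. Huh7 cells held more mRNA of MAPK11, MAPK12 and MAPK13 and less of MAPK14 than Huh1 cells, and less of MAP2K3 and MAP3K5. Of the 10 genes 4 were higher and 5 lower in Huh7 than in Huh1 control cells, where 77.9% of all named genes were called in either direction, 39.3% higher and 38.6% lower. All 10 genes had control arrays that did not overlap between the lines, 4 above and 6 below, against 42.2% and 42.4% of all genes. MAPK12, whose kinase is best known from skeletal muscle, had levels of -3.56, -2.29 and -3.20 on the Huh1 control arrays and of -0.49, -0.54 and -0.53 on those of Huh7, a difference of 2.50 (SE 0.22, 5.65-fold, limma adjusted p = 1.14e-07). For MAPK13, the epithelial isoform, the difference was 1.24 (SE 0.15, adjusted p = 3.68e-06 by limma) and for MAPK11 0.97 (SE 0.11, adjusted p = 1.82e-06 by limma). MAPK14 was 0.45 lower in Huh7, from 0.50 ± 0.03 to 0.05 ± 0.02 (SD, n = 3, limma adjusted p = 2.94e-05).

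Upstream of p38, MAP3K5 read 1.85, 1.53 and 1.55 in Huh1 and -0.46, -0.46 and -0.42 in Huh7, 4.27-fold lower in Huh7 (adjusted p = 6.86e-10 by limma), and its other probe gave 4.21-fold. MAP2K3 was 3.30-fold lower in Huh7 by its brightest probe and 3.48-fold and 2.03-fold by the other probes. MAP2K6 was the exception, with a difference of -0.14 (95% interval -0.49 to 0.21). Among the substrate kinases MAPKAPK2 and MAPKAPK3 were 0.53 and 0.89 lower in Huh7 and MAPKAPK5 was 0.59 higher. Control arrays of the lines lay on different slides, so line and slide cannot be told apart within these arrays. A fit with the slide as a block, which ties the lines through the DSF arrays alone, gave 2.24 for MAPK12, 1.31 for MAPK13, 0.96 for MAPK11, -0.40 for MAPK14, -2.06 for MAP3K5 and -1.76 for MAP2K3.

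MAPK11 was the isoform that rose after DSF, and it did so in both lines. On the Huh1 arrays its level went from -3.59, -3.84 and -3.63 in control cells to -2.38, -2.29 and -2.32 with DSF, and on the Huh7 arrays from -2.71, -2.74 and -2.70 to -1.40, -1.25 and -1.46. Every DSF array stood above every control array of its line. The changes were 1.36 (SE 0.11, 2.57-fold, limma adjusted p = 4.04e-07) in Huh1 and 1.35 (SE 0.11, 2.54-fold, adjusted p = 4.45e-07) in Huh7. The DSF effect in Huh7 minus that in Huh1 was -0.01 (95% interval -0.35 to 0.33). Within the slide that holds Huh7 control and Huh7 DSF replicate 1 the change was 1.32, and in Huh1 without DSF replicate 3, which lay on another slide, 1.35.

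With 5-FU the MAPK11 arrays read -3.53, -3.65 and -3.59 in Huh1, overlapping the controls, and -2.46, -2.14 and -1.90 in Huh7, all above the controls. The change in Huh1 was 0.10 (95% interval -0.14 to 0.34), or -0.16 with normexp background correction, and that in Huh7 0.55 (SE 0.11, adjusted p = 0.000693 by limma). The 5-FU effects of the lines differed by 0.46 (SE 0.16, limma adjusted p = 0.0363), a call lost in 9 of the 18 fits without 1 array, with values of 0.32 to 0.60. Ordered by level, Huh1 control and Huh1 5-FU did not differ beyond their spread, Huh7 control stood above both, Huh1 DSF and Huh7 5-FU overlapped each other above that, and Huh7 DSF was highest with -1.37 ± 0.10 (SD, n = 3). DSF exceeded 5-FU by 1.26 in Huh1 and 0.80 in Huh7, but with spike-in scaling the latter became -0.36 and the changes after 5-FU 0.93 and 1.54.

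The MAPK11 probes gave different sizes of change. Processed signals of the brightest probe were 81 to 521. The dimmer probe, A_33_P3409508, with signals of 75 to 155, rose by 0.32 and 0.38 after DSF, again on every array, a smaller change than that of the brightest probe, A_33_P3409513. After 5-FU in Huh7 the probes disagreed in sign, with -0.26 against 0.55, both called. Which transcripts each probe detects was not tested. With normexp background correction the DSF changes of the brightest probe were 0.84 and 1.01.

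MAPK11 and MAPK12 are adjacent protein-coding genes on chromosome 22, and MAPK13 and MAPK14 on chromosome 6. The RefSeq promoter windows (build GRCh38.p14, 250 bases before to 50 after the transcript start, 5′ to 3′ on the gene's strand) are printed for MAPK11, the isoform that rose, for its neighbour MAPK12, which did not rise, and for MAPK14, which fell. They lie at chr22:50270331-50270630 (minus strand), chr22:50261634-50261933 (minus strand) and chr6:36027558-36027857 (plus strand). Capitals mark matches, on either strand, to the metal response element core TGCACNC or TGCGCNC, which the zinc-sensing factor MTF1 recognizes.
MAPK11: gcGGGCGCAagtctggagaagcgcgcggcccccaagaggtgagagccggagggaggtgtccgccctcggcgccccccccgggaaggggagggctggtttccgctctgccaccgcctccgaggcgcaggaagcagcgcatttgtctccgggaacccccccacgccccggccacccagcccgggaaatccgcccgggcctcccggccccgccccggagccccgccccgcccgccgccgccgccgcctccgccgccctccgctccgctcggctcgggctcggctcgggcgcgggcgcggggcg
MAPK12: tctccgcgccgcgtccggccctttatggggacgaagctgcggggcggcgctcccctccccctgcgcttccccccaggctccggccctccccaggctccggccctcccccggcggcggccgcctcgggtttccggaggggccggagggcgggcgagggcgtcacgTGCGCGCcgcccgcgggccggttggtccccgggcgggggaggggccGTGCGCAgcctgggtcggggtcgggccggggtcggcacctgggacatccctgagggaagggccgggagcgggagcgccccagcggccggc
MAPK14: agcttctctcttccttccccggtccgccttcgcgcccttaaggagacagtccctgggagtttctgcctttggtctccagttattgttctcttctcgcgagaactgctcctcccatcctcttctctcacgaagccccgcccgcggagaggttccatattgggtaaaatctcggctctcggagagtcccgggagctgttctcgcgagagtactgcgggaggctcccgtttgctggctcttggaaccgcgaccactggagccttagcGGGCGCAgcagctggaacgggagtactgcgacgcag

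This core stood in 8 of the 13 promoter windows listed for 9 of the genes, covering 7 genes, and in 29.6% of the 35116 promoters of the table, and it was present in MAPK11, MAPK12 and MAPK14 alike. The windows of MAPK11 and MAPK12 were 80.67% and 81.67% G or C, against a median of 58.67% over all promoters. The AP-1 site TGANTCA was found in 1 of the 13 windows, that of MAP2K3, and in 7.71% of all promoters. The antioxidant response element core TGACNNNGC, which NRF2 binds, was found in 1 window of MAPKAPK3 and in 13.3% of all promoters. These matches describe letters in the windows and not bound sites. MAPKAPK2 was not matched in the promoter table.

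MAPK14, the main p38 isoform of most tissues, moved the other way and was lower after either drug in either line, except that the direction after 5-FU turned with spike-in scaling. Huh1 control arrays read 0.46, 0.52 and 0.51, DSF arrays 0.34, 0.32 and 0.28, and 5-FU arrays 0.13, -0.08 and -0.02. In Huh7 the control arrays read 0.05, 0.03 and 0.06, the DSF arrays -0.40, -0.33 and -0.36, and the 5-FU arrays -0.47, -0.70 and -0.67. No treated array reached the lowest control array of its line. After DSF MAPK14 fell by 0.18 in Huh1 (SE 0.07, limma adjusted p = 0.0438) and by 0.41 in Huh7 (SE 0.07, adjusted p = 0.000217), and after 5-FU by 0.49 and 0.66, while with spike-in scaling it stood 0.34 and 0.32 above control after 5-FU. The DSF effects of the lines differed by -0.23 (95% interval -0.44 to -0.02, adjusted p = 0.0699 by limma), which did not pass the threshold but did without Huh1 5-FU replicate 1 or Huh7 5-FU replicate 1 (-0.23 each). The call in Huh1 after DSF was lost in 12 of the 18 fits that left out 1 array, each control and each DSF array of Huh1 among them, with changes of -0.20 to -0.16, and the slide block gave -0.16. Within its slide the Huh7 change after DSF was -0.45.

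MAPK12 fell after 5-FU in both lines relative to the bulk of probes, but turned to 0.29 in Huh7 with spike-in scaling, and after DSF its only call rested on single arrays. In Huh1 its arrays read -3.56, -2.29 and -3.20 in control cells, -3.65, -3.73 and -3.43 with DSF and -3.70, -3.91 and -4.01 with 5-FU. The control group thus spread over more than a log2 unit, and the DSF arrays overlapped it. Processed signals in Huh1 were low, 96 to 237 in control cells, 90 to 102 with DSF and 99 to 129 with 5-FU. The highest of them was that of control replicate 2. In Huh7 the arrays were tight, at -0.49, -0.54 and -0.53 in control cells, -0.58, -0.53 and -0.50 with DSF and -1.32, -1.27 and -1.05 with 5-FU. After 5-FU MAPK12 fell by 0.86 in Huh1 (SE 0.22, adjusted p = 0.00578 by limma) and by 0.70 in Huh7 (SE 0.22, adjusted p = 0.0156) and with spike-in scaling the changes were -0.03 and 0.29. The change of -0.59 after DSF in Huh1 (adjusted p = 0.0469 by limma) lost its call in 16 of the 18 fits without 1 array, all but those without Huh1 control replicate 1 or 3, and was -0.22 without control replicate 2, without which the 5-FU change was -0.49. In Huh7 the change after DSF was -0.02 (95% interval -0.50 to 0.46).

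MAPK13 passed no test against control by either of its probes in the fit of all arrays. Its arrays read 0.15, 0.36 and 0.22 in Huh1 control cells, 0.46, 0.36 and 0.35 with DSF and 0.61, 0.45 and 0.46 with 5-FU. Huh7 control arrays read 1.50, 1.48 and 1.49, DSF arrays 1.22, 1.08 and 1.097, and 5-FU arrays 1.95, 1.36 and 1.08. All Huh7 DSF arrays were below the controls (change -0.36, 95% interval -0.68 to -0.03, limma adjusted p = 0.0706), and Huh7 5-FU replicate 1 stood far above its companions. Without that array MAPK13 was called after DSF in Huh7 (-0.36), after 5-FU in Huh1 (0.26) and after 5-FU in Huh7 (-0.27), and the DSF call was also made without Huh7 5-FU replicate 3. With spike-in scaling MAPK13 was 1.09 and 0.96 higher after 5-FU, past the threshold. The dimmer probe, A_23_P145376, read -1.11, -1.15 and -0.22 on the Huh1 DSF arrays, with the high value on the array of the other slide.

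**Figure D2:**
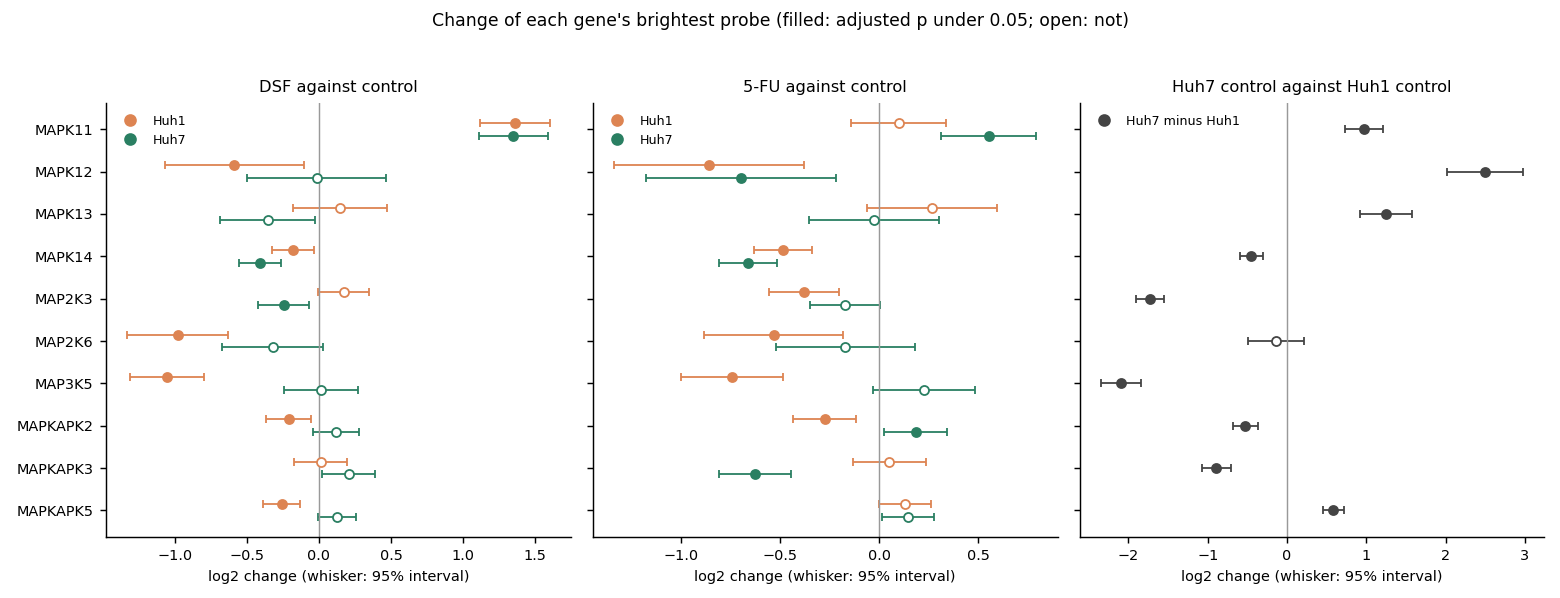
Points are log2 changes of each gene's brightest probe (horizontal axis) with 95% intervals, for DSF against control and 5-FU against control in Huh1 (orange) and Huh7 (green) and for the control cells of Huh7 against Huh1 (grey); filled points have a limma adjusted p under 0.05. MAPK11 lies at 1.36 and 1.35 after DSF, MAPK14 left of 0 for both drugs (right of 0 after 5-FU with spike-in scaling), and MAP3K5 at -1.05 in Huh1 and 0.01 in Huh7 after DSF.

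The balance between isoforms was then read within each array, as the difference of 2 probes' log2 values, which does not depend on how arrays are scaled. A single difference has no meaning because the probes differ, but its change between groups has. MAPK11 gained on MAPK14 with both drugs. The difference was -4.05, -4.36 and -4.14 on Huh1 control arrays, -2.72, -2.61 and -2.60 with DSF and -3.67, -3.57 and -3.57 with 5-FU. In Huh7 it was -2.76, -2.77 and -2.76 in control cells, -0.997, -0.92 and -1.10 with DSF and -1.99, -1.43 and -1.23 with 5-FU. No treated array overlapped the controls of its line. The mean gain over both lines was 1.65 after DSF (1.54 in Huh1 and 1.76 in Huh7) and 0.90 after 5-FU (0.58 and 1.21). In the exact permutation test within lines each had p = 0.005, the smallest that the 400 regroupings can give, and 0.0125 after adjustment over 10 tests. With the mean of the MAPK11 probes the gains were 1.15 and 0.66.

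MAPK13 gained on MAPK14 after 5-FU by 0.69 (0.75 in Huh1 and 0.64 in Huh7, exact permutation adjusted p = 0.0125), with every 5-FU array above the controls of its line. After DSF the gain was 0.19 (0.33 in Huh1 and 0.05 in Huh7, adjusted p = 0.07 by the exact permutation test). MAPK12 against MAPK14 changed by -0.01 after DSF, but that mean joined -0.41 in Huh1, where the control arrays spread widely, and 0.39 in Huh7, where all DSF arrays were above the controls. After 5-FU it changed by -0.20 (exact permutation adjusted p = 0.494). Between the control cells of the lines the 3 isoforms stood 1.42 (MAPK11), 2.95 (MAPK12) and 1.69 (MAPK13) higher against MAPK14 in Huh7 than in Huh1, without overlap. With 3 arrays against 3 an exact permutation test cannot go below p = 0.1, which each of them reached.

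**Figure D3:**
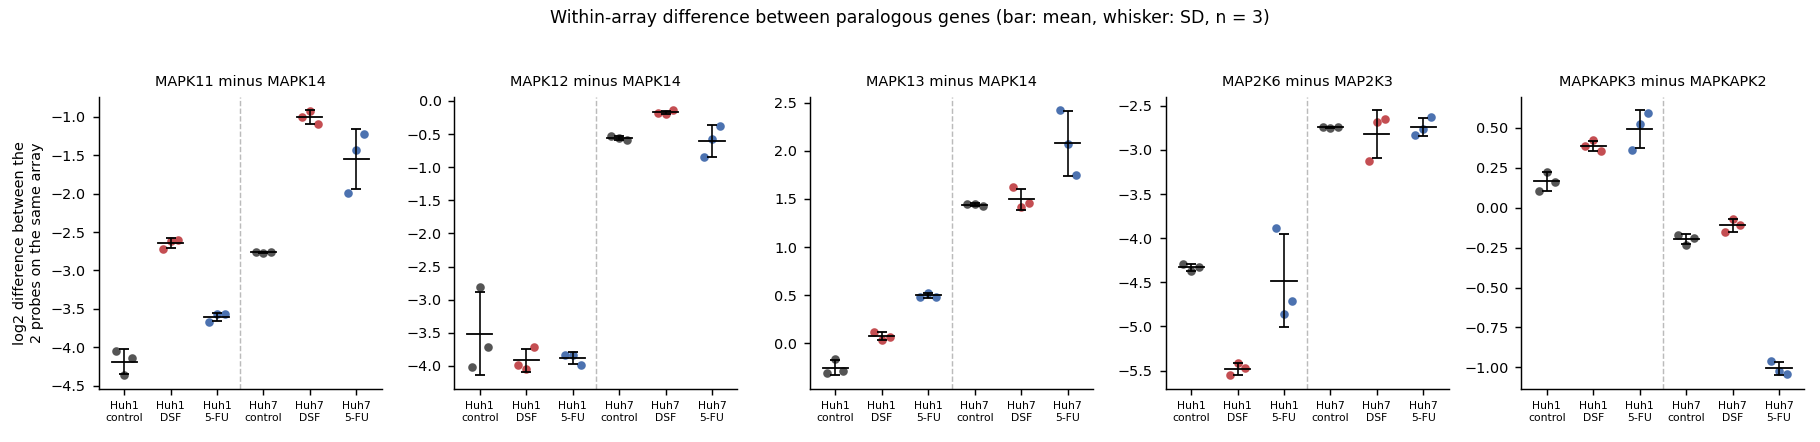
Each panel plots, for 1 pair of genes, the log2 difference of their probes on the same array (vertical axis, a separate scale per panel) against the 6 groups; points are arrays, bars means and whiskers SD (n = 3). MAPK11 minus MAPK14 is higher on every treated array than on the controls of its line, and MAPKAPK3 minus MAPKAPK2 falls to between -0.96 and -1.04 on the Huh7 5-FU arrays.

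The direct activators MAP2K3 and MAP2K6 did not move together. MAP2K6, the kinase that phosphorylates all 4 p38 isoforms, read 0.93, 0.83 and 0.82 in Huh1 control cells and -0.18, -0.08 and -0.09 with DSF, a fall by 0.98 (SE 0.16, adjusted p = 0.000221 by limma). In Huh7 it read 0.70, 0.72 and 0.75 in control cells and 0.31, 0.44 and 0.46 with DSF, a change of -0.32 (95% interval -0.67 to 0.03) with no overlap, which was called without Huh1 5-FU replicate 1. The DSF effects of the lines differed by 0.66 (SE 0.23, limma adjusted p = 0.0353), a call that was lost in 11 of the 18 fits without 1 array, with values from 0.62 to 0.70, and with spike-in scaling, where it was 0.35. With 5-FU the Huh1 arrays read 0.88, 0.00 and 0.11, of which replicate 1 lay among the controls. The change of -0.53 there became -0.81 without that array and lost its call without replicate 2 (-0.37) or replicate 3 (-0.42). With spike-in scaling it was 0.30, in the opposite direction.

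MAP2K3, the other activator, had its clearest change in Huh1 after 5-FU, a fall that turned with spike-in scaling. Its Huh1 levels were 5.23, 5.20 and 5.14 in control cells, 5.37, 5.33 and 5.39 with DSF and 4.76, 4.85 and 4.82 with 5-FU. The fall by 0.38 after 5-FU in Huh1 (SE 0.08, adjusted p = 0.00165 by limma) was seen with all 3 probes (-0.19 to -0.38), and with spike-in scaling it became 0.45. In Huh7 the control arrays read 3.44, 3.47 and 3.49 and the DSF arrays 3.44, 3.12 and 3.11. By the brightest probe the change of -0.24 there (adjusted p = 0.0265 by limma) rested on the pair of arrays of the third slide. Within the slide of the controls it was -0.02. The call was lost without control replicate 2 (-0.24) or 3 (-0.23) and without DSF replicate 2 (-0.19) or 3 (-0.19). The other probes read -0.72 to -0.67 (A_33_P3234571) and -0.37 to -0.30 (A_23_P118427) with DSF in Huh7. Their control arrays read -0.38 to -0.34 and -0.21 to -0.16, so all DSF arrays were lower by these probes. After DSF in Huh1 the 3 probes differed in sign, with changes from -0.07 to 0.27. The DSF effects of the lines differed by -0.41 (SE 0.12, limma adjusted p = 0.0115), and by -0.18 with the slide as a block, which was not past the threshold. MAP2K6 against MAP2K3 within arrays fell by 1.15 after DSF in Huh1, without overlap, and changed by -0.08 in Huh7 (mean -0.61, exact permutation adjusted p = 0.0833).

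MAP3K5, the redox-sensitive kinase at the head of the module, fell in Huh1 with both drugs (with 5-FU not on the spike-in scale) and in Huh7 with neither by its brightest probe. Huh1 control arrays read 1.85, 1.53 and 1.55, DSF arrays 0.61, 0.60 and 0.57, and 5-FU arrays 0.94, 0.90 and 0.87. Huh7 control arrays read -0.46, -0.46 and -0.42, DSF arrays -0.38, -0.44 and -0.48, and 5-FU arrays -0.57, 0.04 and -0.14. By the brightest probe the groups did not overlap in Huh1, and both treated groups overlapped the controls in Huh7. The second probe, A_33_P3377130, read -2.28 to -2.23 in Huh7 control cells. By it all Huh7 DSF arrays were lower (-2.53 to -2.32, change -0.16) and all Huh7 5-FU arrays higher (-2.18 to -1.61). The falls in Huh1 were by 1.05 after DSF (SE 0.12, 2.08-fold, limma adjusted p = 7.21e-06) and by 0.74 after 5-FU (SE 0.12, adjusted p = 0.000153), and the second probe gave -1.06 and -0.63. With spike-in scaling the DSF change was -0.92 and the 5-FU change 0.09. The DSF effect in Huh7 was 0.01 (95% interval -0.24 to 0.27), and the lines differed by 1.07 for DSF (SE 0.17, limma adjusted p = 0.000213) and by 0.97 for 5-FU (SE 0.17, adjusted p = 0.000504). These differences kept their calls in every alternative run, spike-in scaling and the slide block included, with values of 0.76 and 1.11 for DSF. By the second probe MAP3K5 rose by 0.34 after 5-FU in Huh7 (adjusted p = 0.0335), where the brightest gave 0.22, not past the threshold. Without Huh7 5-FU replicate 1 that value was 0.40 and was called. After DSF the level of Huh1 cells, 0.59 ± 0.02, was still above that of Huh7 cells, -0.43 ± 0.05 (SD, n = 3), without overlap.

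Among the substrate kinases the changes were small and, for MAPKAPK2, of opposite direction in the lines. MAPKAPK2 read 1.61, 1.68 and 1.63 in Huh1 control cells, 1.39, 1.39 and 1.51 with DSF and 1.42, 1.34 and 1.34 with 5-FU, and 1.11, 1.12 and 1.11 in Huh7 control cells, 1.32, 1.16 and 1.21 with DSF and 1.47, 1.26 and 1.16 with 5-FU. All treated arrays were thus below the controls in Huh1 and above them in Huh7, an order that spike-in scaling turned for Huh1 after 5-FU (0.55) and for Huh7 after DSF (-0.06). The Huh7 change after DSF was not past the threshold, and it was 0.07 to 0.15 in the fits without 1 array. The effects of the lines differed by 0.33 for DSF (SE 0.10, limma adjusted p = 0.0219) and by 0.46 for 5-FU (SE 0.10, adjusted p = 0.00325), and with spike-in scaling by 0.02 and 0.61, neither past the threshold. The call for DSF was also lost without Huh1 DSF replicate 1 (0.31) or 2 (0.31). The rise by 0.18 after 5-FU in Huh7 lost its call in 14 of the 18 fits without 1 array and was 0.10 without 5-FU replicate 1. The fall by 0.21 after DSF in Huh1 lost its call without control replicate 2 (-0.19) or 3 (-0.22) and without DSF replicate 1 (-0.19) or 2 (-0.19).

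MAPKAPK3 gave the largest change of the substrate kinases, on the scale of the bulk of probes. In Huh7 it read 0.94, 0.89 and 0.92 in control cells, 1.17, 1.09 and 1.103 with DSF and 0.51, 0.23 and 0.12 with 5-FU. It fell by 0.63 after 5-FU (SE 0.09, limma adjusted p = 2.06e-05), though spike-in scaling turned this to a change of 0.36, and it showed 0.21 after DSF (adjusted p = 0.0628 by limma), although all DSF arrays were above the controls and the change was called without Huh7 5-FU replicate 1 or 3. In Huh1 the 9 arrays lay between 1.72 and 1.93 with no change called. The 5-FU effects of the lines differed by -0.68 (SE 0.12, adjusted p = 0.00059 by limma), and by -0.52 with spike-in scaling, not past the threshold. Against MAPKAPK2 within arrays, MAPKAPK3 gained 0.16 after DSF (0.22 in Huh1 and 0.09 in Huh7, exact permutation adjusted p = 0.0125). After 5-FU the mean of -0.24 joined 0.33 in Huh1 and -0.81 in Huh7, both without overlap.

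MAPKAPK5 differed between the lines after DSF. Huh1 control arrays read 2.14, 1.99 and 2.04 and DSF arrays 1.83, 1.83 and 1.73, a fall by 0.26 (SE 0.06, adjusted p = 0.00294 by limma). In Huh7 the control arrays read 2.65, 2.63 and 2.64 and the DSF arrays 2.70, 2.79 and 2.81, a change of 0.13 (95% interval -0.0047 to 0.26) with no overlap. The lines differed by 0.38 (SE 0.09, adjusted p = 0.00274 by limma), by 0.28 with the slide as a block and by 0.08 with spike-in scaling, neither of which was past the threshold. After 5-FU its arrays read 2.22, 2.17 and 2.18 in Huh1 and 2.89, 2.71 and 2.76 in Huh7, all above the controls, with changes of 0.13 and 0.15 that were not past the threshold. Both were called without Huh1 control replicate 1 (0.17 and 0.15), and that in Huh7 also without Huh7 5-FU replicate 2 (0.18) or Huh7 DSF replicate 1 (0.15).

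Counted together, 1 of the 10 genes rose and 6 fell after DSF in Huh1, where 52.7% of all named genes were called, 26.4% higher and 26.3% lower. In Huh7 1 rose and 2 fell, where 53.2% of all genes were called, 29.1% higher and 24.1% lower. After 5-FU 0 rose and 6 fell in Huh1, against 54.9% of all genes called, 25.9% higher and 29.1% lower. In Huh7 2 rose and 3 fell, against 63.5% called, 32.5% higher and 31% lower. Beside the 0 that rose after 5-FU in Huh1, 7 of the 10 genes had an unadjusted limma p under 0.05 in either direction, as did 60.9% of all genes. With spike-in scaling 7 of the 10 rose and 0 fell after 5-FU in Huh1, where 76.9% of all genes rose and 1.38% fell, and 8 rose and 0 fell in Huh7, where 79.5% rose and 3.74% fell. After DSF in Huh1 1 rose and 2 fell on that scale, against 24.9% and 10.5%. Median changes of the 10 genes were -0.20 and 0.00 after DSF in Huh1 and Huh7 and -0.33 and -0.10 after 5-FU, beside medians of -0.02, 0.04, -0.03 and -0.01 over all named genes. Groups that did not overlap were above control for 2 genes and below for 5 in Huh1 after DSF (32.6% and 35.3% of all genes), 4 and 3 in Huh7 (37% and 32.4%), and after 5-FU 2 and 5 in Huh1 (29% and 33.6%) and 3 and 5 in Huh7 (36.6% and 35.3%). The DSF effect was higher in Huh7 than in Huh1 for 4 genes and lower for 1, against 46.3% of all genes, 24.3% and 21.9%, and the 5-FU effect for 3 and 1, against 43.6%, 23.7% and 19.9%.

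Set directly against 5-FU, DSF left more MAPK11 and more MAPK14 mRNA in both lines on the scale of the bulk of probes, but with spike-in scaling MAPK14 turned in both lines (-0.39 and -0.91) and MAPK11 in Huh7 (-0.36). In Huh1 3 genes were higher (MAPK11 by 1.26, MAP2K3 by 0.55 and MAPK14 by 0.31) and 3 lower (MAP2K6 by 0.45, MAPKAPK5 by 0.39 and MAP3K5 by 0.31), where 55.8% of all genes were called, 30.5% higher and 25.3% lower. The call of MAP2K6 was lost without 5-FU replicate 1 (-0.17) and without DSF replicate 1 (-0.41), 2 (-0.46) or 3 (-0.46), and that of MAP3K5 in 11 of 18 fits without 1 array (-0.33 to -0.29). In Huh7 4 were higher (MAPKAPK3 by 0.83, MAPK11 by 0.80, MAPK12 by 0.68 and MAPK14 by 0.25) and 0 lower, where 65.2% of all genes were called, 34.5% higher and 30.7% lower, and 5 of the 10 genes, like 68.4% of all genes, had an unadjusted limma p under 0.05. Leaving out 1 array added lower calls in Huh7: MAP3K5 without 5-FU replicate 1 (-0.38), MAPK13 without 5-FU replicate 3 (-0.52) and MAP2K3 without DSF replicate 1 (-0.18). Without overlap, 3 genes were above and 3 below 5-FU in Huh1 (38.4% and 31.5% of all genes) and 4 above and 0 below in Huh7 (35.6% and 31.7%). The call of MAPK12 was lost without Huh7 5-FU replicate 1 (0.63). The count in Huh7 fell to 2 (MAPK11 and MAPKAPK3) with the slide as a block. The share of all tested probes called there fell as well, from 60.5% to 44.2%. With spike-in scaling 0 of the 10 genes were higher and 8 lower after DSF than after 5-FU in Huh7, where 2.65% of all genes were higher and 84.9% lower. These comparisons share the treated arrays with the comparisons against control.

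The surrounding pathway was read from gene lists drawn up for the module. Up to 4 genes a list and direction are named, those with the largest changes among genes called in both lines. With spike-in scaling 0 of the 19 changes chosen so after DSF turned in either line, whereas of the 27 chosen after 5-FU 15 turned in Huh1 and 14 in Huh7, that is every fall but that of EEF2K in both lines and of MAP2K5 in Huh7, so falls after 5-FU below hold only relative to the bulk of probes. Of 27 upstream activators, among them MAP3 kinases, adaptors and scaffold proteins, 10 rose and 8 fell after DSF in Huh1 and 11 rose and 1 fell in Huh7, with medians of 0.01 and 0.14 beside -0.02 and 0.04 over all named genes, and with spike-in scaling 10 rose and 0 fell in Huh1 and 4 rose and 2 fell in Huh7 (medians 0.14 and -0.03). The stress-inducible activators of MAP3K4 led this list: GADD45B rose by 2.63 in Huh1 and 0.52 in Huh7, GADD45A by 1.90 and 0.93, and GADD45G by 1.57 and 0.75. SPAG9, a scaffold that binds p38 and JNK, rose by 1.19 and 0.73. After 5-FU 9 rose and 8 fell in Huh1 (25.9% and 29.1% of all genes) and 7 rose and 7 fell in Huh7 (32.5% and 31%). With spike-in scaling 25 of 27 rose in each line, where 76.9% of all genes rose in Huh1 and 79.5% in Huh7. GADD45A rose by 1.52 and 1.02 with 5-FU as well, and MAP3K2, MAP3K11 and TAOK2 by 0.22 to 1.05. CDC42, MAP3K1, TAB1 and MAP2K4, another activator of p38 and JNK, fell by 0.34 to 0.62 in Huh1 and by 0.37 to 0.44 in Huh7.

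Of 18 brakes of the pathway, phosphatases and proteins that bind ASK1, 5 rose and 4 fell after DSF in Huh1 and 8 rose and 2 fell in Huh7 (medians 0.00 and 0.13), and with spike-in scaling 5 rose and 0 fell in Huh1 and 3 rose and 2 fell in Huh7 (medians 0.14 and -0.04). DUSP10, a phosphatase with a preference for p38 and JNK, rose by 2.68 (SE 0.16) in Huh1 and 1.38 (SE 0.16) in Huh7, and DUSP4 by 1.84 and 1.70 (SE 0.31 each). AKT1 fell by 0.31 and 0.21. After 5-FU 7 rose and 7 fell in Huh1 and 8 rose and 6 fell in Huh7 (medians 0.06 and 0.21). With spike-in scaling 17 rose and 0 fell in each line, where 76.9% of all genes rose in Huh1 and 79.5% in Huh7. DUSP10 rose by 2.41 and 1.24, DUSP4 by 2.45 and 1.40, DUSP1 by 1.20 and 1.41 and DUSP8 by 0.82 and 0.46. TXN, the thioredoxin that holds ASK1 inactive, fell by 0.47 and 0.68 relative to the bulk of probes, and YWHAE, AKT1 and YWHAG fell by 0.18 to 0.46.

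Of 27 substrates downstream of p38 or its effector kinases, 10 rose and 8 fell after DSF in Huh1 and 12 rose and 7 fell in Huh7 (medians 0.05 and 0.18), and with spike-in scaling 9 rose and 1 fell in Huh1 and 2 rose and 6 fell in Huh7 (medians 0.18 and 0.01). DDIT3, the stress-induced factor CHOP, rose by 2.69 in Huh1 and 0.48 in Huh7, ETS1 by 1.02 and 1.28, ATF6 by 1.03 and 0.45 and LSP1 by 0.29 and 0.58. EEF2K, the kinase that inhibits elongation factor eEF2, fell by 1.04 and 0.90 and STMN1 by 0.35 and 0.37. After 5-FU 5 rose and 7 fell in Huh1 (25.9% and 29.1% of all genes) and 11 rose and 5 fell in Huh7 (32.5% and 31%). With spike-in scaling 24 rose and 1 fell in Huh1 and 25 rose and 1 fell in Huh7, where 76.9% and 79.5% of all genes rose. EEF2K fell by 1.79 and 2.43, the largest of the named changes after 5-FU in Huh7, and RPS6KA5, CREB1 and MKNK2 fell by 0.25 to 0.68, while LSP1 rose by 0.82 and 1.28 and MAX by 0.55 and 0.33. The lists were counted and not tested as sets.

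The kinases of the other MAPK branches served as a comparison, and 15 of 17 were tested. After DSF 4 rose and 5 fell in Huh1 and 3 rose and 6 fell in Huh7 (medians -0.12 and -0.01), and with spike-in scaling 3 rose and 1 fell in Huh1 and 0 rose and 4 fell in Huh7 (medians 0.01 and -0.18). MAPK3 (ERK1) fell by 0.59 and 0.92, MAP2K5 by 0.61 and 0.58, and MAPK9 (JNK2) by 0.27 and 0.30, while MAPK7 (ERK5) rose by 0.36 and 0.40 and MAP2K7, an activator of JNK, by 0.49 and 0.20. After 5-FU 3 rose and 7 fell in Huh1 and 1 rose and 8 fell in Huh7 (medians -0.20 and -0.20). With spike-in scaling, however, 12 rose and 0 fell in each line (medians 0.63 and 0.79), where 76.9% and 79.5% of all genes rose. MAP2K5 fell by 0.76 and 1.06, MAPK3 by 0.71 and 0.83, MAPK9 by 0.30 and 0.51 and ARAF by 0.31 and 0.27, and MAPK7 rose by 0.16 and 0.73.

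Across the 18 arrays the genes whose level ran most closely with each isoform were read off as a description, since the arrays share lines and treatments. MAPK11 ran with MRPL42P5, HCFC2 and HSPBAP1 (Pearson r = 0.96 each), of which HSPBAP1 is named for binding HSP27. MAPK14 ran with ZNF185 (r = 0.98) and APEH (r = 0.97). The closest genes to MAPK12, ADAMTS17, PPP2R3B and CKAP4 (r = 0.99 each), and to MAPK13, OAT, MAP7 and ARHGEF16 (r = 0.97 each), were all higher in Huh7 than in Huh1 control cells. Between the isoforms themselves Pearson's r was 0.84 for MAPK12 and MAPK13 and -0.64 for MAPK11 and MAPK14, values that hold the difference between the lines as well as that between treatments.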

How the data were processed

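Total RNA of sorted EpCAM+ cells was hybridized by the authors to Agilent one-color 8x60K arrays, labeled with Cy3 and read with Feature Extraction 10.7.1.1, per the file headers. The deposited scanner files hold the background-subtracted processed signal, a linear intensity per spot, and the authors also deposited a table of linear intensity normalized per array, whose log2 lay within 0.05 of the scanner files' log2 intensity plus a constant for at least 99.75% of probes on each array. The methods name GeneSpring without a scaling rule, and each array of that table has its 75th percentile near 1, so the level used here was the log2 intensity, averaged over unflagged spots, minus the array's 75th percentile. Control spots and 316 to 447 flagged spots per array were left out, as were 78 probes with no unflagged spot on an array. Probes that every array of some group flagged as well above background, 29894 of 42405, were fitted in 1 linear model with 6 groups (limma 3.58.1, R 4.3.3), with Benjamini-Hochberg adjustment over all of them and a threshold of 0.05. Probes were named by their RefSeq accession or, failing that, by a symbol that RefSeq knows, which named 25771 probes, and each of the 15852 genes so covered was read from its brightest tested probe. Differences between paralogs within an array were tested by exact permutation within lines, with adjustment over 10 tests. The methods call the replicates independent experiments, and p-values measure the spread between these 3 arrays a group, whose number limits the precision.

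On simulated data with the spread of the DSF comparison in Huh1 over 29894 probes, 8%, 44%, 68% and 94% of 50 probes each were called at true log2 changes of 0.25, 0.5, 1 and 2. Only these few probes were changed there, whereas 44.2% of tested probes were called in the comparison itself. The adjustment was therefore stricter in the simulation, and its shares are not the detection rates of the fit used here. Same-numbered arrays of different groups did not deviate together (correlations of -0.09 to 0.02), so replicate numbers were not taken as pairs. The genes, the pathway lists and the comparisons were chosen with earlier results of these data known. Pathway genes were named by a rule: called in both lines in 1 direction, with the 4 largest mean changes a list, drug and direction, and for likeness the 3 genes of highest Pearson correlation with each isoform over the 18 arrays. Some genes that these rules or the marker lists took are not reported here. Alternatives were median, quantile and spike-in scaling (6 spike-in probes with a log2 signal over 8), normexp background correction with offset 50 on the median signals, the deposited normalized table, other filters, the mean of a gene's probes, slide and replicate blocks, fits on the compared groups alone, and leaving out each array. Fits within a slide were chosen after seeing the data. Promoter sequences came from RefSeq (GRCh38.p14). The array design's coordinates belong to another build, so gene positions are not given.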

Additional observations from a re-analysis of the deposited data

Results flagged for a closer look

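In limma's interaction test 5 of the 10 genes had a DSF effect that differed between the lines, beside 46.3% of all named genes, and 4 a 5-FU effect, beside 43.6%. Each difference below subtracts the log2 change in Huh1 from that in Huh7. For DSF the differences were 1.069 for MAP3K5, 0.659 for MAP2K6, 0.3847 for MAPKAPK5, 0.3278 for MAPKAPK2 and -0.415 for MAP2K3. Those of MAP2K6, MAPKAPK5 and MAP2K3 were not past the threshold with the slide as a block, and the array pair of Huh7 DSF replicates 2 and 3 lay alone on its slide. For 5-FU the differences were 0.9664 for MAP3K5, 0.4591 for MAPKAPK2, 0.455 for MAPK11 and -0.6767 for MAPKAPK3, and here control and 5-FU arrays of a line shared a slide. Groups of 3 arrays are too small for a test of single outlying arrays.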

How the results depend on the processing

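Of the 49 changes of the 10 genes past the threshold, all 49 kept direction and call with quantile normalization, normexp, the deposited table, flagged spots kept, an intensity trend with robust variance, and probes well above background on all arrays. Of these, 47 did with the mean of a gene's probes (2 lost), 45 with median scaling (4 lost), 41 without the filter on dim probes and 41 with the compared arrays alone (8 lost each), 38 with the slide as a block (11 lost), and 24 with spike-in scaling (11 lost and 14 turned). The cause was not tested. The calls of MAPK11 after DSF in both lines, of MAP2K6 and MAP3K5 after DSF in Huh1, of MAPK14 after DSF in Huh7 and of the 9 genes between control cells held in all alternatives run. Median scaling moved the median of all probes to -0.17 for DSF in Huh1, -0.21 between the lines and 0.21 for the difference of the DSF effects, and normexp to -0.18 for 5-FU in both lines.

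With spike-in scaling the counts of the 10 genes called were 3 for DSF in Huh1 (35.4% of all named genes called), 8 for 5-FU in Huh7 (83.2%), 8 for DSF against 5-FU in Huh7 (87.5%), 2 for the difference of DSF effects (30.9%) and 2 for that of 5-FU effects (26.8%). Changes that turned were, for DSF in Huh7, MAP3K5 -0.1588, MAPKAPK2 -0.05561 and MAPKAPK5 -0.04747, for 5-FU in Huh1, MAPK14 0.3445, MAP2K3 0.4511, MAP2K6 0.2975, MAP3K5 0.08762 and MAPKAPK2 0.5539, and for 5-FU in Huh7, MAPK12 0.288, MAPK13 0.9596, MAPK14 0.3239, MAP2K3 0.8122, MAP2K6 0.8147 and MAPKAPK3 0.3588. For DSF against 5-FU they were, in Huh1, MAPK12 -0.424, MAPK14 -0.3902, MAP2K3 -0.1442 and MAPKAPK2 -0.6304, and in Huh7, MAPK11 -0.3626, MAPK12 -0.4774, MAPK14 -0.9069 and MAPKAPK3 -0.3266, and for the difference of DSF effects MAPKAPK3 -0.1152.

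Changes near 0 turned under other settings. With median scaling these were MAPK13 -0.02642 and MAPKAPK3 -0.1593 (DSF in Huh1), MAP3K5 -0.004789 (DSF in Huh7), MAPK13 0.004816 (5-FU in Huh7), MAPKAPK2 -0.08482 (DSF against 5-FU in Huh1) and MAPK11 0.142 (difference of DSF effects). That difference for MAPK11 was 0.1643 with normexp, 0.1196 with quantile normalization and 0.02214 with the mean of its probes, with which MAP3K5 was -0.074 for DSF in Huh7. Normexp gave MAPK11 -0.1632 for 5-FU in Huh1, and quantile normalization gave -0.001871 for MAP2K3 and -0.01677 for MAPKAPK5 as differences of 5-FU effects. The slide block gave MAPKAPK3 -0.01129 for DSF in Huh1 and, like the fit within the second slide chosen after seeing the data, 2 genes called with MAP2K3 0.1502 and MAPKAPK2 0.02042 for DSF against 5-FU in Huh7. For the difference of DSF effects the slide block left 2 calls and the within-slide fit 3. With the slide block the share of all tested probes called was 44.2% for DSF against 5-FU in Huh7, against 60.5% in the main fit. For the difference of DSF effects it was 29.1% against 40.3%. Without the filter on dim probes 4 genes were called for DSF in Huh1, where 29.6% of probes were called, against 44.2% in the main fit. With the compared arrays alone 5 were called for DSF in Huh7, beside 49.2% of tested probes, against 46.7% in the main fit. Of the balances, normexp gave 0.1083 for MAPK12 minus MAPK14, 0.2086 (past the threshold) for MAPK13 minus MAPK14 and 0.1286 (call lost) for MAPKAPK3 minus MAPKAPK2 after DSF, and with the mean of a gene's probes 0.2333 for MAPK13 minus MAPK14 and -0.592 for MAP2K6 minus MAP2K3 passed the threshold.

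Leaving out 1 array gave 4 to 7 genes called for DSF in Huh1, 2 to 5 for DSF in Huh7 and 3 to 7 for the difference of DSF effects. In the fit of all arrays 52.7%, 53.2% and 46.3% of all named genes were called in these comparisons. Ranges that crossed 0 were, for DSF, MAPKAPK3 -0.03135 to 0.06298 in Huh1 and MAPK12 -0.03292 to 0.003945 and MAP3K5 -0.01093 to 0.03473 in Huh7, for 5-FU in Huh7, MAPK13 -0.2686 to 0.1679, for DSF against 5-FU, MAPKAPK3 -0.07487 to 0.001001 in Huh1 and MAPKAPK2 -0.1331 to 0.02116 and MAPKAPK5 -0.05641 to 0.03008 in Huh7, and for the differences between lines, MAPK11 -0.06987 to 0.06495 (DSF), MAPK12 -0.2052 to 0.4321 and MAPKAPK5 -0.03548 to 0.05101 (5-FU). Balances ranged from -0.1327 to 0.1701 (MAPK12 minus MAPK14, DSF), 0.1593 to 0.2124 (MAPK13 minus MAPK14, DSF), -0.6569 to -0.5372 (MAP2K6 minus MAP2K3, DSF) and -0.2263 to 0.0177 (the same, 5-FU).

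With the replicate number as a block 42 of the 49 calls held and 7 were lost. Flipping signs over the 6 pairs gave balances of 1.648 and 0.8979 (MAPK11 minus MAPK14, DSF and 5-FU), 0.6928 (MAPK13 minus MAPK14, 5-FU) and 0.1558 (MAPKAPK3 minus MAPKAPK2, DSF), each with an adjusted p of 0.0781 in this exact permutation test. In each of them all treated arrays stood above the controls of their line, so all 6 signs agreed. The unadjusted p was thus the smallest that 6 pairs can give, and these lost calls were set by the number of pairs. By the exact Mann-Whitney test no p can go below 0.1 with 3 arrays against 3.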
